A study of Mus musculus with 36 samples.

Results

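The mRNAs described here are those of the proteins that make up the cytosolic ribosome, measured in mouse gastrocnemius muscle. Members were the rows of the deposited table named Rpl or Rps with a number, together with Rpsa, Rplp0, Rplp1 and Rplp2; the Rps6k kinases and rows named as pseudogenes were left out. That gave 85 of 24319 gene symbols, of which 49 belong to the body of the large subunit, 3 to its stalk and 33 to the small subunit. Among the 85 are 8 paralogs, which are second genes closely related to another member. The muscle came from mice whose Bmal1 gene was deleted in the liver (Bmal1hep-/-) and from wild-type (WT) mice at zeitgeber time (ZT) 0, 4, 8, 12, 16 and 20, counted in hours from lights on. Each of the 12 groups held 3 libraries that the labels call biological replicates, 36 in all. The title of the series names the question, whether a clock in the liver tunes muscle transcripts. The sources used here do not state what drove the deletion or the age and sex of the mice, and muscle Bmal1 cannot check a deletion made in the liver.

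A cytosolic ribosome joins a small subunit, which reads the mRNA, to a large subunit, which forms the peptide bond and carries a stalk that recruits elongation factors. The proteins are needed in nearly equal numbers, and most of their mRNAs begin with a 5′ terminal oligopyrimidine (TOP) tract, a C followed by a run of pyrimidines. Through that tract the kinase complex mTORC1 and the RNA-binding protein LARP1 set how actively these mRNAs are translated and how long they last, so their translation can change while their level does not. Striated muscle has its own ribosomal protein, Rpl3l, which replaces Rpl3 near the peptidyl transferase centre.

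Values were FPKM, fragments scaled to transcript length and to the mapped fragments of the library, so levels of different genes are compared per length. Genes were tested with limma on log2(FPKM + 1) where their mean over the 36 libraries was at least 1 FPKM. That kept 10837 genes and 83 of the 85 members. Adjusted p-values (Benjamini-Hochberg) cover every tested gene, with a threshold of 0.05. Sums of FPKM ran from 556440 to 830136 in all libraries but Bmal1hep-/- ZT20 replicate 3 (518559). Skeletal muscle markers (10 of 10 at or above 1 FPKM) summed to 64184 to 136220 FPKM in Bmal1hep-/- and 84201 to 120247 in WT. Of the 10 adipocyte markers 8 reached that level, and they summed to 332 to 1871 FPKM in Bmal1hep-/- (median 461) and to 274 to 530.4 in WT (median 400.1). The highest sums were 1871 in Bmal1hep-/- ZT4 replicate 1 and 1317 in Bmal1hep-/- ZT20 replicate 3. Hepatocyte markers (4 of 10 at or above 1 FPKM) summed to at most 18.1 FPKM in Bmal1hep-/- and to at most 291 in WT, in ZT8 replicate 3. The actin Acta1 was listed at 0 in Bmal1hep-/- ZT16 replicate 3. Bmal1hep-/- ZT12 replicate 2 and Bmal1hep-/- ZT8 replicate 2 had the steepest fall of values with transcript length, and these 6 libraries stood apart. Since muscle was measured whole, fewer cells of a type and less RNA per cell cannot be told apart.

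The members took 4.999% to 7.06% of the summed FPKM of a library. This share and the levels below leave out near-identical copies listed under other symbols, which are described further on. The median member had a mean of 400.4 FPKM, against 7.60 FPKM for the median tested gene. Of the 85 members, 6 averaged above 1000 FPKM, 13 between 600 and 1000, 38 between 300 and 600, 18 between 100 and 300, 1 between 50 and 100, 7 between 1 and 50, and 2 below 1.

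The highest member as listed was Rplp1, a stalk protein, with 1645 ± 514 FPKM in Bmal1hep-/- and 1551 ± 260.3 in WT (SD, n = 18 each). Summed with its copy Rps27rt, Rps27 averaged more, with 2457 FPKM in Bmal1hep-/- and 2120 in WT. Rpl38, a small protein at the surface of the large subunit, averaged 1382 ± 495 FPKM in Bmal1hep-/- and 1448 ± 365 in WT. Rpl36 averaged 1173 ± 412 FPKM in Bmal1hep-/- and 1082 ± 234 in WT, and Rps2, near the path of the mRNA, 1165 ± 175 in Bmal1hep-/- and 1057 ± 111 in WT. Within each genotype, neighbours in this order differed by about their SD or less.

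The stalk holds Rplp0, its base, and the paired Rplp1 and Rplp2. Rplp0 averaged 684 ± 91.8 FPKM in Bmal1hep-/- and 657 ± 62.9 in WT. Rplp2 averaged 1021 ± 304 FPKM in Bmal1hep-/- and 900.5 ± 167 in WT. The libraries of Rplp1 ran from 814 through a median of 1581 to 2797 FPKM in Bmal1hep-/- and from 1160.2 through 1558 to 2238 in WT. Both extremes of Rplp1 lay in Bmal1hep-/-, where the lowest was ZT8 replicate 1 and the highest ZT12 replicate 2.

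At the low end of the tested members stood Rps4l (3.96 FPKM over all libraries), Rps27 (9.45), Rpl30 (12.4), Rpl7l1 (14.7) and Rpl26 (30.3). Rps4l is a paralog of Rps4x that GENCODE M21 lists as a transcribed processed pseudogene; the other members are listed as protein-coding. Rps27, Rpl30 and Rpl26 encode core proteins, and their low values stood beside high values for near-identical copies in the same table.

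The coding sequences of 84 members were searched for copies under another symbol, with at least 95% identity over at least 90% of the length. The search covered only GENCODE M21 transcripts (mouse GRCm38) of symbols in the deposited table. Such a copy was found for 15 members and averaged at least 1 FPKM for 7 of them. For 4 members the copy held more than the member did. Rps27 (chromosome 3) averaged 9.45 FPKM and its copy Rps27rt (chromosome 9) 2279 FPKM, with 0 of 252 coding bases different. Rpl30 (chromosome 15) averaged 12.4 FPKM and Gm12191 (chromosome 11) 682 FPKM, with 1 of 345 bases different. Rpl26 (chromosome 11) averaged 30.3 FPKM and Gm15772 (chromosome 5) 708 FPKM, with 2 of 435 bases different. Rpl34 (chromosome 3) averaged 266 FPKM and Rpl34-ps1 (chromosome 6) 499.6 FPKM, with 2 of 351 bases different. The copies were chosen for description after their values were seen.

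The sequences show how little separates a read of a member from a read of its copy. The first line is the whole coding sequence of Rps27, which Rps27rt shares base for base; the other lines are bases 76 to 116 of Rpl30 and Gm12191, 157 to 197 of Rpl26 and Gm15772, and 112 to 152 of Rpl34 and Rpl34-ps1, counted from the first base of the start codon. Capitals mark a base that differs within each pair.
Rps27: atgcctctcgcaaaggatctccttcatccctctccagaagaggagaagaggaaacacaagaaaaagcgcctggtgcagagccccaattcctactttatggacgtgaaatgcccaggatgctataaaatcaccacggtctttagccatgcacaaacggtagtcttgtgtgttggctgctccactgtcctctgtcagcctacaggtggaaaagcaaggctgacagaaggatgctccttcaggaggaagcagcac
Rpl30: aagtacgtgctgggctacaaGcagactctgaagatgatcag
Gm12191: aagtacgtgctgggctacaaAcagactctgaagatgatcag
Rpl26: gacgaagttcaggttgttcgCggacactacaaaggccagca
Gm15772: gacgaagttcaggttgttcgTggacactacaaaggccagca
Rpl34: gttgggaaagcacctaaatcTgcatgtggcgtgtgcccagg
Rpl34-ps1: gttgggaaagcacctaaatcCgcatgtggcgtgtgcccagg

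The split between a member and its copy varied from library to library more than their sum did. The SD over libraries on the log2 scale was 1.21 for Rps27 alone and 0.32 for the sum with Rps27rt. It was 0.83 for Rpl26 alone and 0.23 summed, 0.68 for Rpl30 alone and 0.21 summed, and 0.62 for Rpl34 alone and 0.26 summed. At ZT16 Rps27 had 5.10, 257 and 2.10 FPKM in Bmal1hep-/- and 0.474, 1.35 and 2.34 FPKM in WT. A single Bmal1hep-/- library, replicate 2, was far above the others. With its copy added, Rps27 had a median of 2403 FPKM in Bmal1hep-/- and 2104 in WT. The summed median was 712 FPKM in Bmal1hep-/- and 666 in WT for Rpl30, 764 in Bmal1hep-/- and 696 in WT for Rpl26, and 794 in Bmal1hep-/- and 728 in WT for Rpl34. How the authors' counting divided reads between copies is not stated, so values of these 4 members alone are uncertain.

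**Figure D1:**
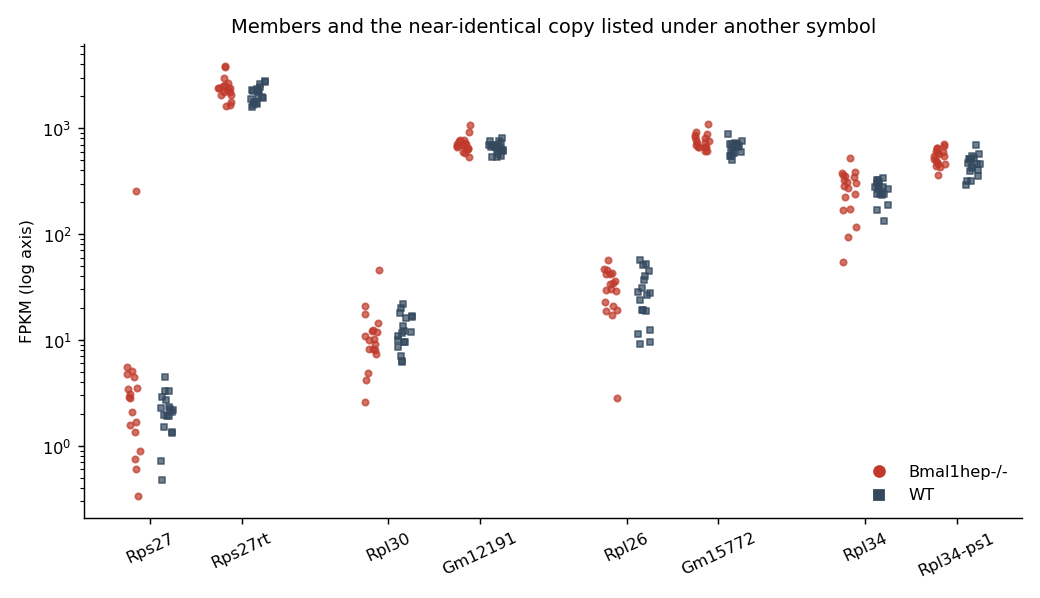
FPKM on a log axis of 4 ribosomal protein genes and of their near-identical copies under another symbol, with 1 point per library in Bmal1hep-/- and WT. Each copy lies above its member in every library, and Rps27 is high in a single Bmal1hep-/- library (257 FPKM at ZT16).

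Paralogs held very different shares of the summed FPKM of their pairs. Rpl3l, the striated muscle paralog, took 91.0% ± 3.33 of the Rpl3l and Rpl3 sum in Bmal1hep-/- and 91.4% ± 1.13 in WT (SD, n = 18 each). Rpl3l ran from 344 through a median of 468 to 670.3 FPKM in Bmal1hep-/- and from 398 through 455 to 586 in WT. Rpl3 ran from 34.8 through 42.4 to 80.0 FPKM in Bmal1hep-/- and from 37.5 through 42.6 to 56.9 in WT. The genotypes overlapped for both genes.

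The lowest Rpl3l shares were 81.1% in Bmal1hep-/- ZT20 replicate 3 and 83.6% in Bmal1hep-/- ZT4 replicate 1, the libraries with the highest adipocyte marker sums. Rpl3 was 80.0 FPKM and 78.6 FPKM there, above every other library, and Rpl3l was 344 and 401 FPKM. Leukocyte markers (8 of 12 at or above 1 FPKM) were also highest in these libraries. They summed to 469 FPKM in Bmal1hep-/- ZT20 replicate 3 and 396 FPKM in Bmal1hep-/- ZT4 replicate 1, against ranges up to 173 FPKM in WT. The part of these cells in the Rpl3 values was not tested. Without these 2 libraries the Rpl3l share over both genotypes was 91.7% ± 1.14 (n = 34).

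Rpl22l1 took 61.4% ± 11.2 of its sum with Rpl22 in Bmal1hep-/- and 65.2% ± 6.44 in WT. Rpl36al and Rpl36a, both forms of the protein beside the exit site for tRNA, were nearly equal, with 50.9% ± 3.14 for Rpl36al in Bmal1hep-/- and 51.4% ± 2.86 in WT. Rpl7l1, which in human cells is found on assembling large subunits, took 3.64% ± 0.506 of its sum with Rpl7 in Bmal1hep-/- and 3.80% ± 0.417 in WT. Rps4l took 0.999% ± 0.206 of its sum with Rps4x in Bmal1hep-/- and 1.01% ± 0.272 in WT. The share of Rps27l against Rps27 was 96.4% ± 11.1 in Bmal1hep-/- and 99.2% ± 0.330 in WT, and it carries the uncertainty of Rps27. It leaves out Rps27rt, which has the coding sequence of Rps27 and averaged 2279 FPKM, against 257 FPKM for Rps27l. The share therefore does not show that Rps27l is the main form. The testis paralogs Rpl10l and Rpl39l were the 2 members below the level needed for testing. Rpl10l was above 0 in 1 Bmal1hep-/- library (0.208 FPKM) and 0 WT libraries, and Rpl39l in 2 Bmal1hep-/- and 3 WT libraries (at most 0.353 FPKM).

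Levels of the members varied together from library to library. For each library the median over the 83 tested members of the deviation from each gene's own mean was taken on the log2 scale. It was highest in Bmal1hep-/- ZT12 replicate 2 (0.56, with 82 of 83 members above their mean), Bmal1hep-/- ZT8 replicate 2 (0.40, 79 members) and WT ZT20 replicate 3 (0.27, 81 members). It was lowest in Bmal1hep-/- ZT20 replicate 2 (-0.33, 13 members above their mean) and WT ZT12 replicate 3 (-0.24, 7 members). Replicates of a group differed in this median with an SD of 0.18, so libraries of the same genotype and time could stand at opposite ends. Over the 3403 pairs of members the median Pearson r across libraries was 0.64, and 95.7% of pairs were above 0. Genes of a library share its depth and composition, and these correlations are a description.

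Rpl7a (r = 0.97 with the median of the other members) and Rpl18 (0.95) were among those that followed the rest most closely, and 71 members were above 0.5. Below 0.2 stood Rps4l (0.052), Rpl5 (0.058), Rpl7l1 (0.10), Rpl3 (0.13) and Rpl26 (0.19). Rpl5 binds the 5S rRNA during assembly. The measure of likeness was Pearson's r over the 36 libraries.

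**Figure D2:**
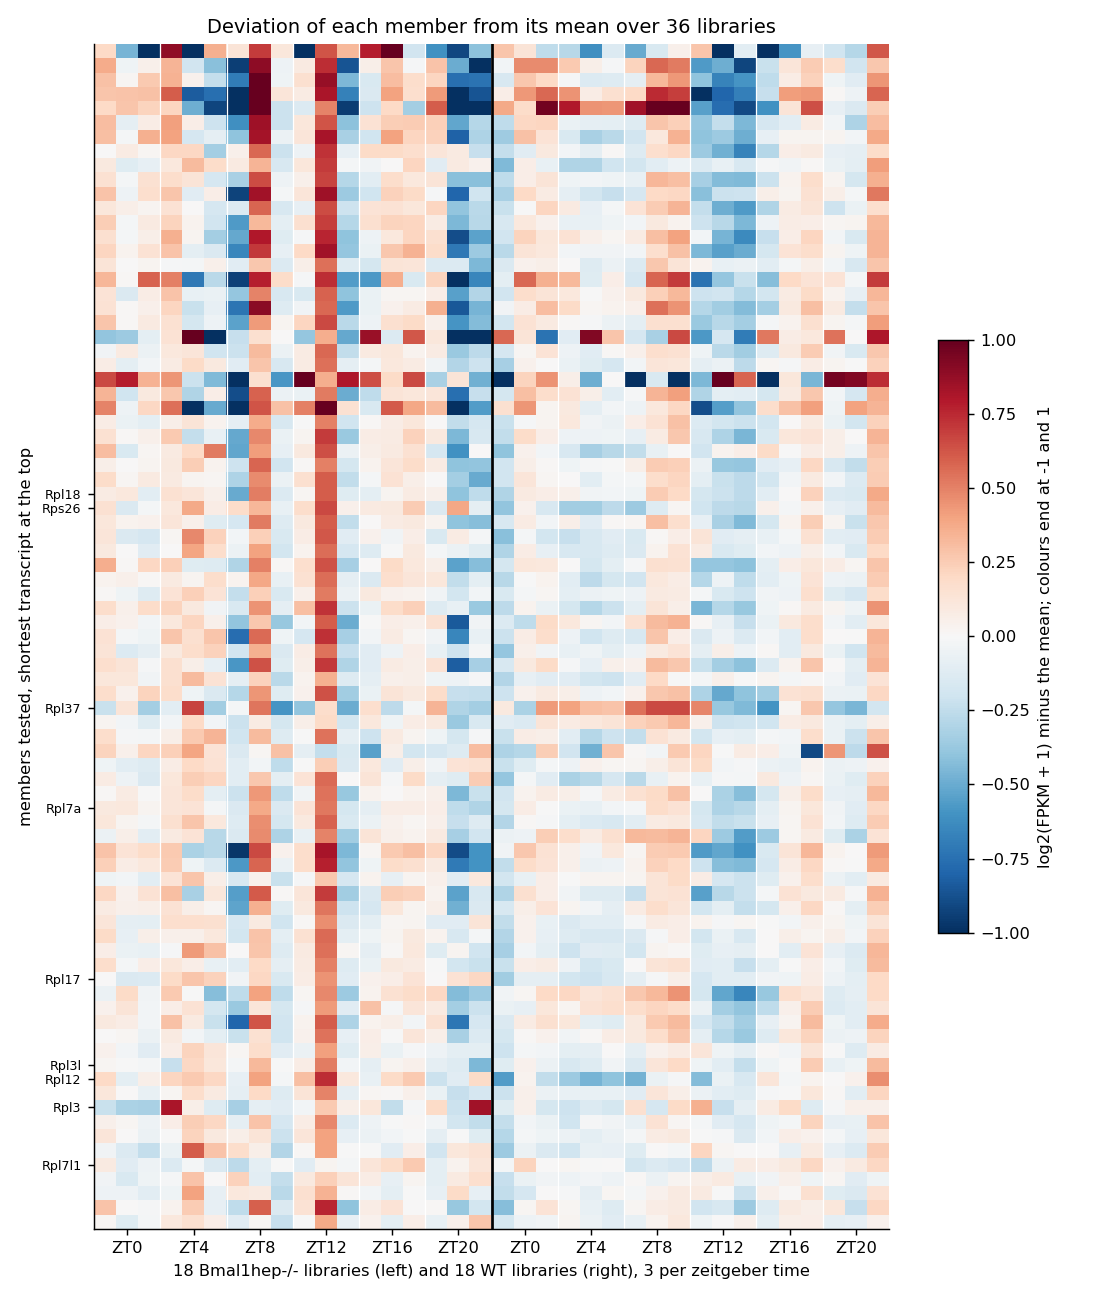
Deviation of each tested ribosomal protein gene (rows, shortest transcript at the top) from its own mean over 36 libraries on the log2(FPKM + 1) scale, with the 18 Bmal1hep-/- libraries left of the 18 WT libraries and each in order of zeitgeber time. Names are given for some of the genes described in the text. Most genes of a column share a colour, with Bmal1hep-/- ZT12 replicate 2 (median 0.56) the highest and Bmal1hep-/- ZT20 replicate 2 (median -0.33) the lowest.

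Transcript length moved with this shared deviation. Length was the median over the transcripts that the GENCODE M21 basic set lists for a gene. Members are short, with a median of 774 bases against 2614 for tested genes, and 64 of the 83 were under 1000 bases. In each library the deviations of all other tested genes were ranked against transcript length. That Spearman rho was -0.56 in Bmal1hep-/- ZT12 replicate 2, -0.43 in Bmal1hep-/- ZT8 replicate 2 and -0.40 in WT ZT20 replicate 3, and 0.34 in Bmal1hep-/- ZT20 replicate 2. Other genes under 1000 bases had median deviations of 0.41 in Bmal1hep-/- ZT12 replicate 2, 0.23 in Bmal1hep-/- ZT8 replicate 2 and 0.25 in WT ZT20 replicate 3, so they were high there too. Bmal1hep-/- ZT4 replicate 1 departed from this, with a member median of 0.14 (73 of 83 members above their mean) beside -0.018 for other short genes and a length trend of 0.038. Across the 36 libraries the length trend of the other genes and the member median had a Pearson r of -0.90 and a Spearman rho of -0.90, given as a description. The part of length or RNA quality in the member values was not tested.

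Within the members, short transcripts varied most. The 28 shortest (345 to 644 bases) had a median SD over libraries of 0.33 on the log2 scale, the next 27 had 0.22 and the 28 longest (937 to 5130 bases) 0.18. The annotated length was 5130 bases for Rps15a and 3706 for Rps20, and it need not be that of the transcript present in muscle. The median SD was 0.24 for all tested members and 0.19 for all tested genes. Rps29, a short zinc-binding protein of the small subunit, had an SD of 0.72, Rps28 0.68 and Rpl22l1 0.52. The least variable members were Rps6, the target of the S6 kinases, Rpl5, Rps15a and Rpl7, with an SD of 0.12 each.

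**Figure D3:**
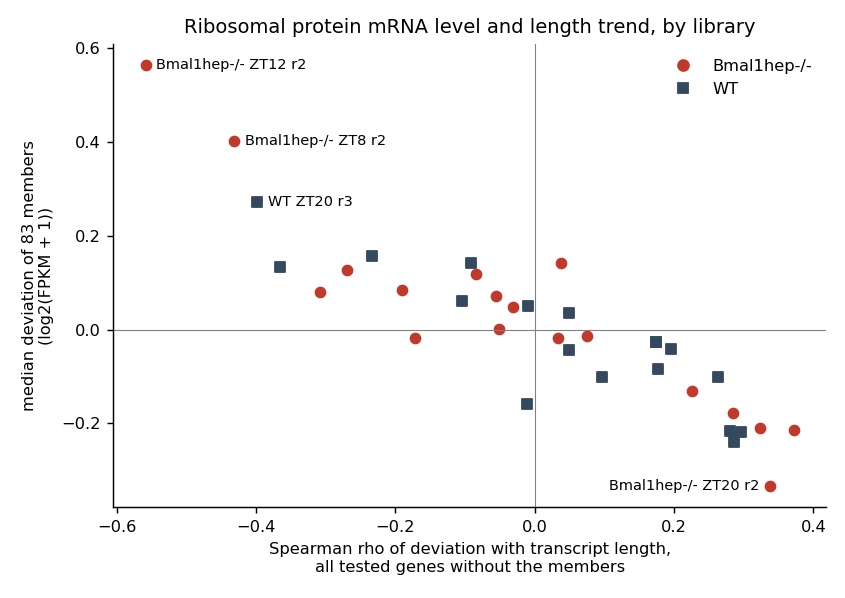
Median log2 deviation of the 83 tested ribosomal protein genes in each library against the Spearman rho of other genes' deviations with transcript length, with 1 point per library in Bmal1hep-/- and WT. Medians are mostly lower where rho is higher, with Bmal1hep-/- ZT12 replicate 2 (rho -0.56, median 0.56) at the upper left and Bmal1hep-/- ZT20 replicate 2 (rho 0.34, median -0.33) at the lower right.

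Between genotypes, no member and no other gene passed the threshold in limma over all times, at any of the 6 times, or in the test of whether the genotype difference varied with time. For the difference over all times 0 of 83 members were called, beside 0% of all tested genes, and 11 members had an unadjusted p below 0.05, beside 8.37% of all. Of these, 10 were higher in Bmal1hep-/- (3.98% of all genes) and 1 was lower (4.39% of all genes). The median member difference was 0.047 on the log2 scale, against -0.0028 for all tested genes. Estimates were above 0 for 60 of 83 members and for 48.4% of all tested genes. Without the 6 libraries that stood apart the member median turned to -0.012, with 35 of 83 members and 50.9% of all genes above 0. That choice was one-sided. The 6 hold the libraries of highest member median, Bmal1hep-/- ZT12 replicate 2 (0.56) and ZT8 replicate 2 (0.40). Those of steepest rise with length, Bmal1hep-/- ZT8 replicate 1 (rho 0.37) and ZT20 replicate 2 (rho 0.34), were kept. With each library's trend with transcript length removed the member median was 0.030, with 54 members and 51.2% of all genes above 0. It was 0.020 without Bmal1hep-/- ZT12 replicate 2 and 0.072 without replicate 3 of that group.

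The smallest p-values belonged to Rps26, at the channel through which mRNA leaves the small subunit, and Rpl12, at the base of the stalk. Rps26 averaged 1181 ± 181 FPKM in Bmal1hep-/- and 974 ± 133 in WT, a log2 difference of 0.27 (SE 0.06, 95% interval 0.14 to 0.41, limma adjusted p = 0.207). Rpl12 averaged 548 FPKM in Bmal1hep-/- and 452 in WT, a log2 difference of 0.28 (SE 0.07, 95% interval 0.14 to 0.42, limma adjusted p = 0.207). Next came Rpl17 (0.16), Rps7 (0.18), Rps12 (0.19), Rpl36a (0.19), Rps27a, which is made as a fusion to ubiquitin (0.14), Rpl36al (0.17) and Rps2 (0.13), all above 0. Rps29 was the exception, with 666 FPKM in Bmal1hep-/- and 890 in WT and a log2 difference of -0.46 (SE 0.20, 95% interval -0.87 to -0.06). With copies added, the log2 difference was 0.20 for Rpl26 (0.16 alone) and 0.19 for Rpl34 (-0.070 alone). It was 0.19 for Rps27 (0.46 alone) and 0.11 for Rpl30 (-0.20 alone). None of these passed with its copy added (limma adjusted p of at least 0.350). With array weights in limma, 186 genes and 5 members passed: Rps26, Rpl12, Rpl17, Rps7 and Rps29. Those weights ran from 0.163 to 2.59 except for 41.1 in Bmal1hep-/- ZT8 replicate 3 and 9.55 in Bmal1hep-/- ZT12 replicate 1.

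**Figure D4:**
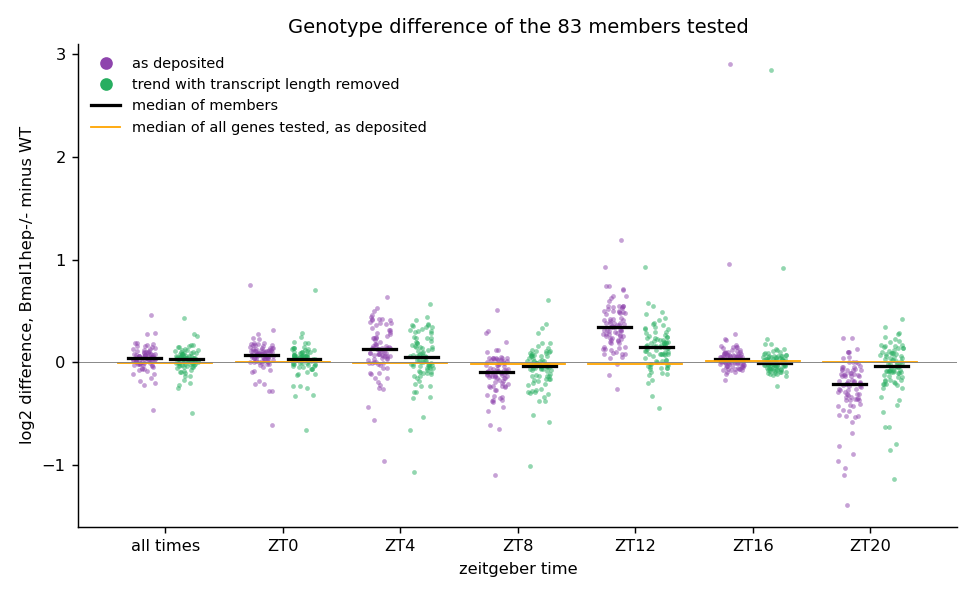
Log2 difference in FPKM + 1, Bmal1hep-/- minus WT, of each of the 83 tested ribosomal protein genes over all times and at 6 zeitgeber times, as deposited (purple) and with the length trend removed (green), with bars at the member median and orange lines at the median of all tested genes. As deposited, members lie mostly above 0 at ZT12 (median 0.35) and mostly below 0 at ZT20 (median -0.21), and none passed an adjusted p of 0.05.

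At ZT0 the median difference was 0.075, against 0.0075 for all tested genes, with 68 members and 52.5% of all genes above 0. Without WT ZT0 replicate 1 the member median was -0.0089, so its sign rested on a single library, and without the other libraries of ZT0 it was 0.038 to 0.13. With the length trend removed it was 0.038. At an unadjusted p below 0.05, 0 members were higher in Bmal1hep-/- (1.19% of all genes) and 0 lower (1.01%). Rpl10, a protein joined to the large subunit late in assembly, had 714, 716 and 647 FPKM in Bmal1hep-/- and 539, 624 and 609.6 FPKM in WT. Its libraries did not overlap, and the log2 difference was 0.23 (SE 0.12). All 3 Bmal1hep-/- libraries lay above WT for 2 members, Rpl10 and Rpl36al (6.55% of all genes), and below WT for 1, Rpl3 (5.79%).

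At ZT4 the median difference was 0.13, against -0.0021 for all tested genes, with 64 members and 49.4% of all genes above 0. With the length trend removed the member median was 0.051, with 49 members and 51.2% of all genes above 0. Without the 6 libraries apart it was 0.088, with 52 members and 48.0% of all genes above 0. Adipocyte markers had a median difference of 1.06 at ZT4, above 0 for 8 of 8 tested. Their sums were 1871, 445 and 454 FPKM in Bmal1hep-/- and 384, 425 and 406 FPKM in WT. Without the 6 libraries apart the median of these markers was -0.17, with 3 of 8 above 0. Leukocyte markers summed to 396 FPKM in Bmal1hep-/- ZT4 replicate 1, against at most 173 FPKM in any WT library. The part of adipocyte or leukocyte markers in the member values was not tested. An unadjusted p below 0.05 was found for 15 members that were higher in Bmal1hep-/- (4.74% of all genes) and 0 that were lower (4.32%). The libraries did not overlap for 33 members that were higher in Bmal1hep-/- (6.98% of all genes) and for 2 that were lower (8.37%). Rpl12 had 570.2, 589 and 567 FPKM in Bmal1hep-/- and 381, 355 and 372 FPKM in WT. Its log2 difference was 0.64 (SE 0.17, limma adjusted p = 0.309). Rps26 had 1140.2, 1380.0 and 1116 FPKM in Bmal1hep-/- and 835, 837 and 885 FPKM in WT. Every Bmal1hep-/- library of both genes stood above every WT library.

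Rpl17, near the exit of the peptide tunnel, had 458, 487 and 470.4 FPKM in Bmal1hep-/- and 352, 347 and 359 FPKM in WT at ZT4, a log2 difference of 0.42 (SE 0.11). Among other members of small p at that time were Rps7 (0.44), Rpl10 (0.37), Rps12 (0.46), Rpsa (0.40), Rps14 (0.53) and Rps2 (0.38). Rps29 again had the lowest estimate, -0.96. With copies added, estimates at ZT4 rose to 0.54 for Rpl26 (0.069 alone) and 0.48 for Rpl34 (-0.44 alone). They were 0.23 for Rpl30 (0.0077 alone) and 0.43 for Rps27 (0.42 alone). None of these passed with its copy added (limma adjusted p of at least 0.321). Without the 6 libraries that stood apart, among them Bmal1hep-/- ZT4 replicate 1, 115 genes passed the threshold at ZT4, of which 5 were members: Rpl12, Rpl17, Rps7, Rpsa and Rps2.

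At ZT8 the median difference was -0.097, against -0.012 for all tested genes, and 22 members and 46.0% of all genes were above 0. An unadjusted p below 0.05 was found for 0 members that were higher in Bmal1hep-/- (0.914% of all genes) and 8 that were lower (2.17%). The libraries did not overlap for 1 member that was higher (2.41%) and 4 that were lower (4.13%). Rpl15 had 152, 187 and 156 FPKM in Bmal1hep-/- and 207, 212 and 222 FPKM in WT, without overlap, a log2 difference of -0.37 (SE 0.12). Rpl37 had 179.9, 265 and 121 FPKM in Bmal1hep-/- and 267, 288 and 288 FPKM in WT, a log2 difference of -0.64 (SE 0.28). Rps29 had 309, 1471 and 598 FPKM in Bmal1hep-/- and 1248, 1438 and 1481 FPKM in WT, so 1 Bmal1hep-/- library lay within the WT values. Estimates were also negative for Rpl21 (-0.33), Rps3 (-0.23), Rpl13a (-0.44), Rps6 (-0.20) and Rpl27a (-0.27). Leaving out Bmal1hep-/- ZT8 replicate 2 gave a member median of -0.29, and leaving out replicate 1 of that group gave 0.047, so its sign rested on a single library. With the length trend removed it was -0.031, and without the 6 libraries apart -0.23. With array weights, 2098 of 10837 genes and 46 of 83 members passed at ZT8. In that fit the Bmal1hep-/- ZT8 libraries weighed 41.1 (replicate 3), 0.220 (replicate 2) and 0.163 (replicate 1). The group mean thus rested mainly on a single library.

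At ZT12 the median difference was 0.35, against -0.015 for all tested genes, with 80 members and 46.6% of all genes above 0. An unadjusted p below 0.05 was found for 39 members that were higher in Bmal1hep-/- (4.40% of all genes) and 0 that were lower (2.85%). The libraries did not overlap for 21 members that were higher (4.39% of all genes) and 1 that was lower (4.41%). Rpl36al had 397, 532 and 277 FPKM in Bmal1hep-/- and 234, 264 and 247 FPKM in WT, a log2 difference of 0.65 (SE 0.17, limma adjusted p = 0.686). Its partner Rpl36a had 297, 506 and 291 FPKM in Bmal1hep-/- and 239, 219.5 and 193 FPKM in WT, a log2 difference of 0.70 (SE 0.18). In both, replicate 2 was far above the other Bmal1hep-/- libraries.

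Rpl12 had 606, 818 and 529 FPKM in Bmal1hep-/- at ZT12 and 364, 469 and 438 FPKM in WT. Rps26 had 1200.2, 1678 and 1099 FPKM in Bmal1hep-/- and 923, 887 and 878 FPKM in WT. The groups did not overlap for either gene. The log2 differences were 0.60 for Rpl12 and 0.54 for Rps26. Estimates of other members of small p were 0.42 for Rpl27a, 0.55 for Rpl32, 0.41 for Rpl7a, 0.55 for Rpl35a, 0.40 for Rps27a and 0.52 for Rpl11, a partner of Rpl5 on the 5S rRNA. Rpl34 had an estimate of 1.19 alone and of 0.45 summed with Rpl34-ps1, below Rpl36a and Rpl36al. The smallest estimate was that of Rps4l (-0.26). Without Bmal1hep-/- ZT12 replicate 2, the library of steepest fall with length, the member median was 0.14. It was 0.15 after each library's trend with transcript length was removed, with 65 members above 0 (48.0% of all genes) and 27 at an unadjusted p below 0.05 (6.55% of all genes). Without the 6 libraries apart 4 members had an unadjusted p below 0.05 (3.13% of all genes). With array weights, 2068 of 10837 genes and 49 of 83 members passed. The Bmal1hep-/- ZT12 libraries then weighed 9.55 (replicate 1), 0.351 (replicate 3) and 0.181 (replicate 2), so their mean rested mainly on a single library.

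At ZT16 the median difference was 0.029, against 0.011 for all tested genes, with 50 members and 53.7% of all genes above 0. It was -0.0014 with the length trend removed and -0.019 without WT ZT16 replicate 1. At an unadjusted p below 0.05, 1 member was higher in Bmal1hep-/- (1.68% of all genes) and 0 lower (0.766%). It was Rps27, whose log2 difference of 2.91 rested on the library with 257 FPKM and was 0.17 when summed with Rps27rt. The libraries did not overlap for 5 members that were higher (5.48%) and 1 that was lower (3.96%).

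At ZT20 the median difference was -0.21, against 0.0024 for all tested genes, with 10 members and 50.4% of all genes above 0. Without WT ZT20 replicate 3 the member median was -0.086, without Bmal1hep-/- ZT20 replicate 2 it was -0.12 and without Bmal1hep-/- ZT20 replicate 1 it was -0.32. Leukocyte markers had a median difference of 1.15 at ZT20 and adipocyte markers 1.38, each above 0 for 8 of 8 tested, and 4 leukocyte markers had an unadjusted p below 0.05. Without the 6 libraries apart these medians were 0.46 for leukocyte markers (8 of 8 above 0) and 0.58 for adipocyte markers (6 of 8). Without the 2 adipocyte-rich libraries the member median was -0.17. An unadjusted p below 0.05 was found for 0 members that were higher in Bmal1hep-/- (3.98% of all genes) and 9 that were lower (8.61%). The libraries did not overlap for 6 members that were lower (6.52%) and 0 that were higher (4.63%). Rpl36al had 293, 305 and 249 FPKM in Bmal1hep-/- and 329, 313 and 441 FPKM in WT, a log2 difference of -0.34 (SE 0.17). Rpl3l had 441, 429 and 344 FPKM in Bmal1hep-/- and 445, 456 and 586 FPKM in WT, a log2 difference of -0.29 (SE 0.14). Neither overlapped, though the nearest Rpl3l libraries, 441 in Bmal1hep-/- and 445 in WT, were close together.

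Rpl23a (-0.47), Rpl32 (-0.42), Rpl35 (-0.53), Rpl22l1 (-0.89) and Rps25 (-0.26) were among the other members of small p at ZT20. Estimates of 3 more shrank when copies were added: Rpl30 was -1.39 alone and -0.12 summed with Gm12191, Rpl34 was -1.03 alone and -0.27 summed with Rpl34-ps1, and Rpl26 was -1.10 alone and 0.01 summed with Gm15772. The highest estimate was 0.24 for Rpl37. After the length trend was removed the member median at ZT20 was -0.039, with 35 members and 52.4% of all genes above 0, and after quantile normalization it was -0.0012.

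Other short genes and the mitochondrial ribosome gave values on the same side at these times. The 941 tested genes under 1000 bases that were not members had a median of 0.19 at ZT12 and -0.19 at ZT20. The 77 mitochondrial ribosomal protein genes, which serve translation of the organelle's own mRNAs, had 0.21 at ZT12 and -0.21 at ZT20. With the length trend removed, medians at ZT12 were 0.15 for members, 0.072 for the mitochondrial ribosome and -0.024 for other short genes. Medians at ZT20 were then -0.039 for members, -0.086 for the mitochondrial ribosome and 0.012 for other short genes.

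The test of whether the genotype difference varied with time called 0 of 10837 genes in limma. An unadjusted p below 0.05 was found for 8 members, beside 4.64% of all genes. They were Rpl36al, with the smallest p (F = 3.87, limma adjusted p = 0.90), Rpl12, Rpl27a, Rpl32, Rpl21, Rpl23a, Rps25 and Rpl34. With near-identical copies added, the unadjusted limma p was 0.105 for Rpl34 and 0.071 for Rpl21, no longer below 0.05. With array weights, 2394 of 10837 genes and 63 of 83 members passed, with the uneven weights of Bmal1hep-/- ZT8 and ZT12 given above.

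Daily rhythms were tested as a cosine of 24 h period, whose amplitude is the distance from mean to peak on the log2 scale. In Bmal1hep-/-, 593 genes (5.47%) passed and 0 of the 83 members in limma, with 2 members (Rpl7l1 and Rpl3l) at an unadjusted p below 0.05, beside 16.3% of all genes. In WT, 654 genes (6.03%) and 1 member passed. In the mean of both genotypes 1346 genes (12.4%) and 1 member passed. The median amplitude of members was 0.096 in Bmal1hep-/- and 0.092 in WT. Over all tested genes it was 0.091 in Bmal1hep-/- and 0.088 in WT.

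The member that passed was Rpl7l1, the minor paralog of Rpl7. From ZT0 to ZT20 its means were 14.3, 13.6, 13.4, 14.3, 16.8 and 14.8 FPKM in Bmal1hep-/- and 15.4, 14.7, 12.9, 13.9, 16.0 and 15.9 FPKM in WT. The 3 libraries had 12.0, 13.6 and 14.5 FPKM at ZT8 and 16.0, 16.7 and 17.7 FPKM at ZT16 in Bmal1hep-/-. In WT they had 12.7, 13.2 and 12.9 FPKM at ZT8 and 15.3, 15.7 and 17.04 FPKM at ZT16. The 2 times did not overlap in either genotype.

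**Figure D5:**
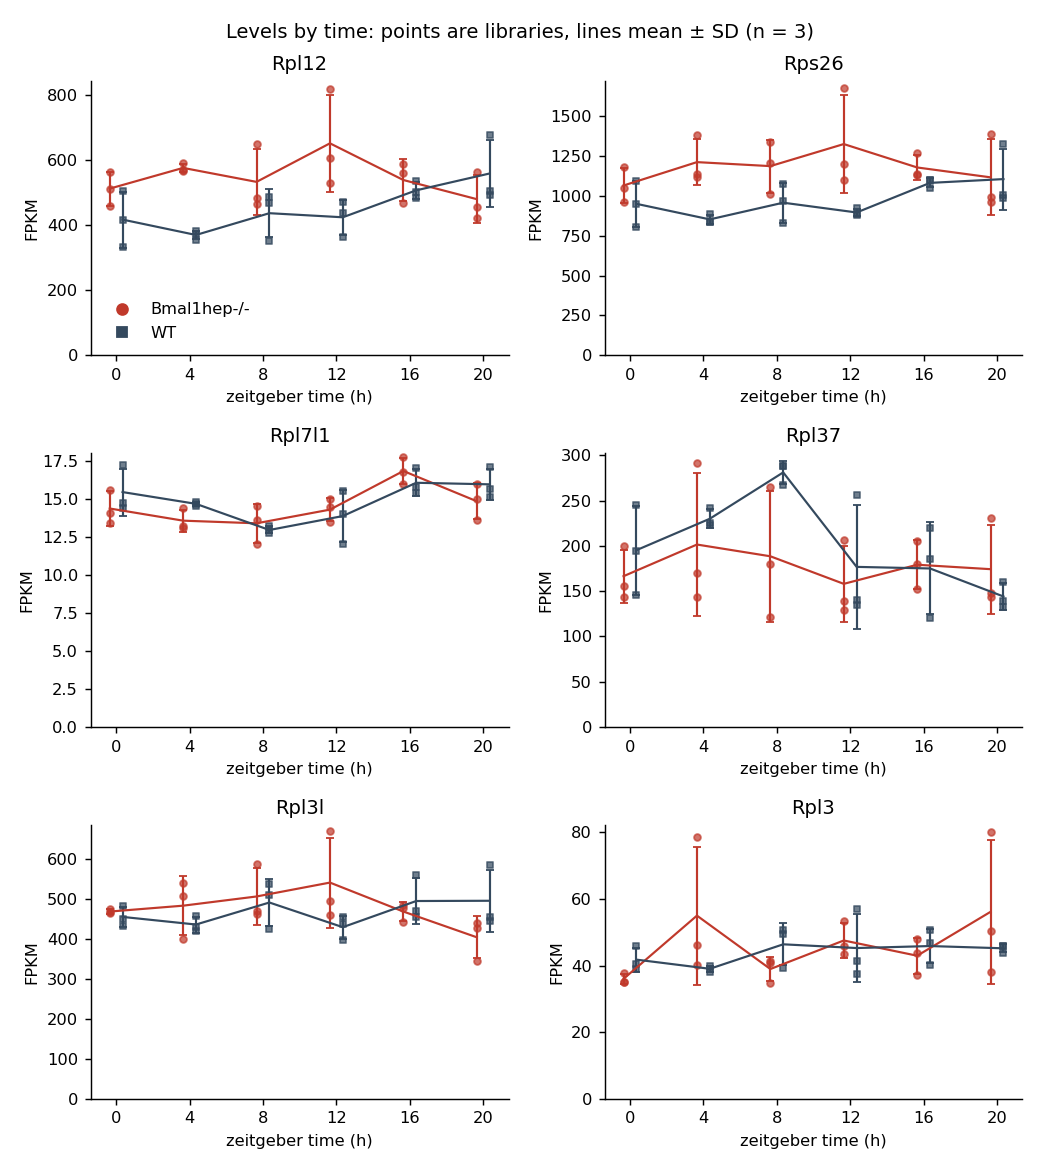
FPKM of Rpl12, Rps26, Rpl7l1, Rpl37, Rpl3l and Rpl3 by zeitgeber time (h), with each point a library and lines through the means ± SD of 3 libraries in Bmal1hep-/- and WT. Rpl12 and Rps26 lie higher in every Bmal1hep-/- library than in every WT library at ZT4 and ZT12, while Rpl7l1 has its highest mean at ZT16 in both genotypes (16.8 FPKM in Bmal1hep-/- and 16.0 in WT).

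Rpl7l1 had an amplitude of 0.13 (SE 0.04) and a peak at 17.3 h (SE 1.09) in Bmal1hep-/-, with a limma adjusted p of 0.0781. In WT the amplitude was 0.14 (SE 0.04) and the peak at 20.2 h (SE 1.00), with a limma adjusted p of 0.0407. In the mean of both genotypes the amplitude was 0.12 (SE 0.03) and the peak at 18.8 h (SE 0.796), with a limma adjusted p of 0.0026. The mean rhythm passed in 36 of 36 fits that each left out a library. The Bmal1hep-/- rhythm passed in 1 of 36 such fits, without Bmal1hep-/- ZT20 replicate 1 (limma adjusted p = 0.0331). The WT rhythm passed in 25 of 36, and did not without WT ZT0 replicate 2, any WT library of ZT8, ZT12 replicate 1 or 2, any WT library of ZT16, or ZT20 replicate 2 or 3 (limma adjusted p at most 0.105 there). With time as a factor in place of the cosine, the adjusted p of Rpl7l1 in WT was 0.249.

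Next in WT was Rpl37, a small zinc-binding protein of the large subunit, with an amplitude of 0.40 (SE 0.11), a peak at 6.28 h and a limma adjusted p of 0.0589. Its means from ZT0 to ZT20 were 166, 201, 188, 158, 179 and 174 FPKM in Bmal1hep-/- and 195, 230.0, 281, 177, 175 and 144 FPKM in WT. Rpl12 had an amplitude of 0.24 and a peak at 17.5 h in WT (limma adjusted p = 0.101). These 2 and Rpl7l1 were the members with an unadjusted p below 0.05 in WT, beside 16.8% of all genes. Rps26 (amplitude 0.16), Rps29 (0.55), Rps7 (0.13) and Rps23 (0.20) followed. In Bmal1hep-/- the smallest p after Rpl7l1 belonged to Rpl3l, with an amplitude of 0.15 (SE 0.06) and a peak at 9.13 h (limma adjusted p = 0.275).

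The rhythm differed between genotypes for 0 members and 0 genes at the adjusted threshold in limma. An unadjusted p below 0.05 was found for Rpl12 and Rps26, beside 4.01% of all genes. Rpl12 had an amplitude of 0.14 with a peak at 9.89 h in Bmal1hep-/-, and 0.24 with a peak at 17.5 h in WT. Its rhythm did not pass in either genotype.

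The start of each gene was read from RefSeq promoter windows (GRCm38.p6), which covered 64 members. The TOP tract was searched as a C at the annotated start followed by at least 4 C or T bases on the gene's strand; the other strand was not searched. It was present in 13 of 64 members (20.3%) and in 813 of 27025 genes (3.01%). With the C allowed within 5 bases either side of the start, 29 of 64 members (45.3%) and 21.2% of all genes held it. Of the 68 mitochondrial ribosomal protein genes with a window, 0 held the tract at the start and 17 within 5 bases. Of the 7 paralogs with a window, 0 held it at the start and 2 within 5 bases. The 13 members were Rpl14, Rpl15, Rpl28, Rpl35, Rpl35a, Rpl38, Rplp2, Rps10, Rps15a, Rps18, Rps21, Rps27 and Rps6. A match describes these letters and not a measured start.

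The windows below, each of 40 bases before the annotated start and 30 from it, are shown for the genes the results turn on, and capitals mark the tract. Rps26 and Rpl12, with the smallest p-values between genotypes, and Rpl22l1 held it within 5 bases; Rpl36al, Rpl7l1 and Rpl3l had no such run there.
Rps27 chr3:90213619-90213688, minus strand: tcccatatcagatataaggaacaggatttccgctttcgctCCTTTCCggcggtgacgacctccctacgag
Rps26 chr10:128626477-128626546, minus strand: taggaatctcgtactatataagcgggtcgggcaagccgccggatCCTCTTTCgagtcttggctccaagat
Rpl12 chr2:32961672-32961741, plus strand: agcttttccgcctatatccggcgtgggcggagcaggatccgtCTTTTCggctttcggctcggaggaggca
Rpl22l1 chr3:28805468-28805537, plus strand: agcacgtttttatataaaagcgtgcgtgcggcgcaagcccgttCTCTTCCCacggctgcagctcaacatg
Rpl36al chr12:69184038-69184107, minus strand: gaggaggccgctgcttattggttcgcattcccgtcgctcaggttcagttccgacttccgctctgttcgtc
Rpl7l1 chr17:46782627-46782696, minus strand: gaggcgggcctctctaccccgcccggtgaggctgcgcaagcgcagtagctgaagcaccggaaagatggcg
Rpl3l chr17:24727786-24727855, plus strand: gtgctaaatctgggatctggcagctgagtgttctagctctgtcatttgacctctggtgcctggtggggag

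Fau, which encodes Rps30 as a fusion to a ubiquitin-like protein, and the ribosomal scaffold Gnb2l1, the older symbol of Rack1, lie outside the naming rule of the members and did not pass in any comparison of genotypes. Fau averaged 402 FPKM in Bmal1hep-/- and 356 in WT (log2 difference 0.17, limma adjusted p = 0.476). Gnb2l1 averaged 344 FPKM in Bmal1hep-/- and 338 in WT.

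Of 21 other mRNAs known to carry a TOP tract, most of them translation factors, 0 passed between genotypes. Over all times 2 were higher in Bmal1hep-/- at an unadjusted p below 0.05, beside 3.98% of all genes. They were the poly(A)-binding protein Pabpc1 (0.17, limma adjusted p = 0.280) and Naca (0.20), which chaperones nascent chains. The median difference of the 21 was 0.015 over all times, 0.15 at ZT12 and -0.083 at ZT20. The values at ZT12 included 0.27 for Btf3, 0.27 for Eef1g and 0.32 for Eef1d, and those at ZT20 -0.43 for Eef1a2 and -0.31 for Eif3f. Pabpc1 was rhythmic in the mean of both genotypes, with an amplitude of 0.18 and a peak at 10.6 h (limma adjusted p = 0.0036), beside 12.4% of all genes. In either genotype alone 0 of the 21 passed, beside 5.47% of all genes in Bmal1hep-/- and 6.03% in WT.

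Of 38 tested genes of ribosome assembly and the nucleolus, 0 passed between genotypes, with a median difference of -0.0049 over all times, 0.058 at ZT12 and 0.029 at ZT20. As rhythmic, 0 of the 38 passed in Bmal1hep-/- (5.47% of all genes) and 1 passed in WT (6.03% of all genes). It was Nop56, a core protein of box C/D particles, with an amplitude of 0.16 and a peak at 14.5 h in WT (limma adjusted p = 0.0276). The mean of both genotypes was rhythmic for Nop56 (limma adjusted p = 0.0010) and for Myc, a transcription factor that drives ribosome production, with an amplitude of 0.24 and a peak at 9.79 h (limma adjusted p = 0.0211). Of all tested genes 12.4% passed in that mean.

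Of 19 genes of mTORC1 and its control of TOP mRNAs, 0 passed between genotypes, with a median difference of -0.0093 over all times. Ddit4, an inhibitor of mTORC1, passed as rhythmic in both genotypes. Its amplitude was 0.73 with a peak at 12.0 h in Bmal1hep-/- (limma adjusted p = 0.0050) and 0.64 with a peak at 13.1 h in WT (limma adjusted p = 0.0159). Eif4e, the cap-binding protein, passed in the mean of both genotypes alone, with an amplitude of 0.13 and a peak at 15.6 h (limma adjusted p = 0.0067).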

How the data were processed

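Polyadenylated RNA of gastrocnemius was sequenced in 36 libraries. The authors deposited FPKM per gene symbol in 1 table; the submitters' processing notes name FastQC 0.11.8, STAR and the builds mm10 and GRCm39, while the tool and annotation behind FPKM, strand handling and total reads are given in none of the sources used here. The FPKM worth of 1 read gave relative depths only, fitted to the depth ratios of all pairs of libraries. The deepest over the shallowest was 1.65, and the ratio of 84.9% of pairs lay within 0.05 of that fit on the log2 scale. Of the pairs of libraries, 0 were identical.

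limma 3.58.1 in R 4.3.3 (eBayes with trend and robust) was fitted to log2(FPKM + 1) of all 10837 genes with mean FPKM of at least 1, as 12 group means (24 residual degrees of freedom) and as a 24 h cosine per genotype. The pseudocount of 1 understates changes of low genes. P-values of the fit of 12 group means are set against the spread between the labelled replicates. In the cosine fit the residual also holds the departure of group means from a 24 h cosine. Only the genotype difference over all times and the 24 h rhythm in WT were tried on simulated data. The tests at single times and of genotype by time were not. Python 3.11.15, numpy 2.4.6, pandas 2.3.3, scipy 1.17.1, matplotlib 3.10.9, blastn 2.17.0+ and GENCODE M21 (lengths for 96.58% of tested genes) were also used. Coordinates are those of RefSeq GRCm38.p6.

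Members and lists (mitochondrial ribosome, other TOP mRNAs, remaining ribosomal components, assembly, mTORC1, cell markers) were chosen with earlier results of these data known. Named were the highest and lowest members, stalk, paralogs, the 10 members of smallest p and the extreme estimates per test, and up to 4 genes per list; some of these are not reported here. Copies were named after their values were seen. Same-numbered libraries of the 2 genotypes correlated over 0.1 in 3 of 18 pairs, so numbers were not taken to pair them. Alternatives were a pseudocount of 0.1, no filter or a filter at 5 FPKM, quantile normalization, median-of-ratios scaling, array weights, a block for the replicate number, removal of the length trend (loess span 0.5), time as a factor, fits within a genotype, and leaving out each library or 6 libraries set apart by markers, length trend or an Acta1 value of 0. Added after seeing the data were fits without 2 adipocyte-rich libraries, without the 2 libraries of steepest fall with length, and with copies added to their member.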

Additional observations from a re-analysis of the deposited data

Results flagged for a closer look

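For 8 of 83 members, beside 5.73% of all tested genes, every Bmal1hep-/- library lay above every WT library at one time and below every WT library at another, and 7 of them are given here; the difference between the times was not tested pair by pair, and none passed the test of genotype by time. With 3 libraries a group, no group was searched for single libraries apart from the rest. On the log2 scale, Bmal1hep-/- minus WT, Rpl36al was 0.24 at ZT0, 0.32 at ZT4 and 0.65 at ZT12, and -0.34 at ZT20. Rpl3l was 0.32 at ZT12 and -0.29 at ZT20, and Rps25 was 0.24 at ZT4 and -0.26 at ZT20. Rpl3 was 0.42 at ZT4 and -0.21 at ZT0, where the ZT4 value includes the adipocyte-rich library with 78.6 FPKM. Rps6 was 0.14 at ZT4 and -0.20 at ZT8. Rpl26 was 0.95 at ZT16 and -1.10 at ZT20, and Rps27 was 0.51 at ZT8 and -0.69 at ZT20; both have a near-identical copy in the table, so these values are uncertain.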

How the results depend on the processing

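Counts of called genes between genotypes stayed at 0 in most alternatives. With array weights they were 186 over all times (5 members), 10 at ZT4 (1 member), 2098 at ZT8 (46), 2068 at ZT12 (49), 1 at ZT16 and 2394 by time (63). Under those weights the Bmal1hep-/- means of ZT8 and ZT12 each rested mainly on a single library. Without a filter on level the counts were 1 at ZT0, 2 at ZT8, 1 at ZT16 and 1 by time. Without the 6 libraries apart 115 genes and 5 members were called at ZT4; without the 2 adipocyte-rich libraries 38 genes at ZT4 and 4 over all times; without the 2 of steepest fall with length 1 over all times. The member median at ZT12 was 0.13 with quantile normalization, 0.15 with the length trend removed and 0.14 without the 6 or the 2 steepest libraries; at ZT8 it was -0.29 without those 2, and at ZT20 -0.0012 with quantile normalization. The cause of these shifts was not tested.

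In Bmal1hep-/- 1 member, Rpl7l1, was called rhythmic with the length trend removed, and genes were 383 without the 6 libraries, 335 with time as a factor and 320 within the genotype. Members called rhythmic in WT were 2 with the filter at 5 FPKM, 4 with quantile normalization and 5 with the length trend removed. They were 6 with array weights (1388 of 10837 genes) and 2 without the 2 steepest libraries. With time as a factor they were 0 (334 genes), and in WT libraries alone 2 (985 genes). The main fit in WT called 1 of 83 members beside 6.03% of all genes. These counts are not read as a result about the members. For the mean rhythm 884 genes passed the filter at 5 FPKM and the test. The tract within 5 bases of the start was in 45.3% of members. Among the members of smallest p in each test, the sign reversed for Rps25 at ZT20 with quantile normalization (0.021). It also reversed for Rpl26 at ZT20 with its copy added (0.011). For Rpl21 at ZT16 it reversed without WT ZT16 replicate 1 (-0.016, with a range over single libraries of -0.016 to 0.24). Outside those members, adding copies reversed further signs, among them Rpl34 at ZT4 (-0.44 alone, 0.48 summed) and over all times (-0.070 alone, 0.19 summed). Others were Rpl30 over all times (-0.20 alone, 0.11 summed) and Rpl26 at ZT8 (-0.097 alone, 0.24 summed).

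Leaving out each library in turn, genes called ranged 0 to 2 over all times (2 without Bmal1hep-/- ZT4 replicate 1), 0 to 33 at ZT4 (33 without Bmal1hep-/- ZT4 replicate 1), 0 to 332 at ZT20 (332 without Bmal1hep-/- ZT20 replicate 1) and 0 to 1 for the difference in rhythm. The member median ranged 0.020 to 0.072 over all times, -0.0089 to 0.13 at ZT0, 0.088 to 0.18 at ZT4, -0.29 to 0.05 at ZT8, 0.14 to 0.50 at ZT12, -0.019 to 0.087 at ZT16 and -0.32 to -0.086 at ZT20. Over all times it was -0.012 without the 6 libraries apart and -0.015 without the 2 of steepest fall with length. Both sets hold the libraries of highest member median, Bmal1hep-/- ZT12 replicate 2 and ZT8 replicate 2. Rhythmic members ranged 0 to 1 in Bmal1hep-/- and 0 to 2 in WT, beside 464 to 839 genes in Bmal1hep-/- and 553 to 720 in WT. With the replicate number as a block, 0 genes were called between genotypes, and 581 were called rhythmic in Bmal1hep-/-, 672 in WT and 1353 in the mean, and medians of members were 0.047 over all times and 0.35 at ZT12; 13 of 36 libraries correlated best with their own number. Read depth is unknown, which limits low genes such as Rps4l and Rpl39l.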

Other observations

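Summed FPKM of the remaining marker lists was as follows. Slow fibre markers (7 of 8 with a mean of at least 1 FPKM) ran from 325 to 1022 in Bmal1hep-/- and from 327 to 1477 in WT. Hepatocyte markers ran from 0.129 to 18.1 in Bmal1hep-/- and from 0.329 to 291 in WT. Endothelial markers (10 of 10) ran from 135 to 194 in Bmal1hep-/- and from 116 to 195 in WT, and fibroblast and tendon markers (10 of 10) from 214 to 759 in Bmal1hep-/- and from 261 to 756 in WT. Erythroid markers (4 of 4 in the table) ran from 82.8 to 593 in Bmal1hep-/-, highest in ZT8 replicate 2, and from 95.5 to 316 in WT. Nerve and Schwann cell markers (7 of 7) ran from 57.3 to 393 in Bmal1hep-/- and from 59.7 to 645.6 in WT, and smooth muscle markers (5 of 6) from 1133 to 2005 in Bmal1hep-/- and from 1272 to 1737 in WT. Their part in the ribosomal protein values was not tested.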
